A study of Homo sapiens with 8 samples.

Results

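The genes described here are 9 enzymes that make, convert or conjugate steroid hormones: the UDP-glucuronosyltransferases UGT2B15, UGT2B17, UGT2B11 and UGT2B28, the aldo-keto reductases AKR1C1, AKR1C2 and AKR1C3, and the enzymes HSD17B4 and SRD5A1. They were chosen by name, and every probe set annotated to them was taken, also where a probe set names several genes. This gave 12 of the 21214 probe sets that carry a gene symbol, for 9 of 20172 genes. The 12 hold 11 distinct measurements, because the probe sets annotated to both UGT2B15 and UGT2B17 have identical values in all 8 arrays and are counted once. Counts of members below are counts of these distinct probe sets, not of genes. UGT2B15 and UGT2B11 have no probe set of their own and are read only through probe sets shared with close relatives.

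Transcripts were measured in 2 established human prostate cancer cell lines, LNCaP, which responds to androgen, and DU145, which grows without it. Each line was transfected with siTET2 (an siRNA against TET2), siControl (a control siRNA), miR-29b or nc (a negative control miRNA), grown in RPMI medium with 10% FBS, and harvested after 72 h. There was 1 array for each line and construct, 8 in all and no replicates, so a difference between 2 arrays of a line is a value with no test. Only 1 siRNA against TET2 was used. Effects shared by both lines were tested with limma on all 8 arrays.

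Androgen action in prostate cells depends on local enzymes as well as on supply. SRD5A1 reduces testosterone to dihydrotestosterone, AKR1C3 makes testosterone from androstenedione, and AKR1C2 and AKR1C1 reduce dihydrotestosterone to weaker diols. UGT2B15, UGT2B17 and UGT2B28 attach glucuronic acid to androgens and their metabolites, which ends their action, while UGT2B11 is a close relative. HSD17B4 oxidises estradiol and takes part in peroxisomal fatty acid breakdown. TET2 acts on methylated DNA, turning the methyl mark of cytosine into oxidised forms. The microRNA miR-29b represses its targets through the seed at its 5′ end.

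TET2 and marker genes were set against the labels of the siRNA arrays and of the lines, while the miR-29b arrays were not checked. The log2 difference of TET2, siTET2 minus siControl, was -1.12 in LNCaP and -1.25 in DU145 on its brighter probe set (the estimate common to both lines was -1.18, limma adjusted p = 0.0222), and -0.85 in LNCaP and -0.91 in DU145 on its other probe set. In LNCaP arrays 6 or 7 of 7 measured LNCaP markers exceeded the median of their array, and in DU145 arrays 2 (FOXA1, STEAP2) did. Of 11 measured DU145 markers, 1 (EGFR) exceeded it in LNCaP arrays and 9 in DU145 arrays. Of 11 immune cell markers, 1 (CD68) did so in every array. Of 10 fibroblast markers, 0 or 1 (COL1A1) did, and of 10 markers of hepatocytes, which also make these enzymes, 0 or 1 (CYP2E1 or SERPINA1). The array medians were 7.10 to 7.17 in LNCaP and 6.59 to 6.66 in DU145, a shift of 0.51 log2 units between the lines. Over the probe sets with a symbol alone they were 7.64 to 7.71 in LNCaP and 7.34 to 7.39 in DU145, and levels are called above or below the array median by these.

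The transfected microRNA is shown because its seed is what a target must match. Its mature form from RefSeq (GRCh38.p14) is encoded on the minus strand by MIR29B1 (chr7:130877467-130877489) and MIR29B2 (chr1:207802450-207802472), and the capitals mark bases 2 to 8, the seed.
hsa-miR-29b-3p: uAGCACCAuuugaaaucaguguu

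The AKR1C genes lie side by side on chromosome 10. The 250 bases before their annotated starts (RefSeq, GRCh38.p14, each 5′ to 3′ on the gene's strand) are shown because AKR1C2 and the mRNA probe set of AKR1C1 had the same order of arrays in LNCaP, though not in DU145. The windows lie at chr10:4963165-4963414 on the plus strand for AKR1C1, at chr10:5003858-5004107 on the minus strand for AKR1C2 and at chr10:5048531-5048780 on the plus strand for the first of 2 AKR1C3 starts. Capitals mark a TATAAA match on the opposite strand. The window of the other AKR1C3 start (chr10:5094164-5094413, plus strand), not shown, held no TATAAA match.
AKR1C1: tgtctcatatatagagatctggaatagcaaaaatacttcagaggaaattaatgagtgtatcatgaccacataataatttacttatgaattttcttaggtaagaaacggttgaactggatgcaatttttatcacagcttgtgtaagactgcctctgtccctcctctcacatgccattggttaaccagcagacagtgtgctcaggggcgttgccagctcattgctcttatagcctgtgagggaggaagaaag
AKR1C2: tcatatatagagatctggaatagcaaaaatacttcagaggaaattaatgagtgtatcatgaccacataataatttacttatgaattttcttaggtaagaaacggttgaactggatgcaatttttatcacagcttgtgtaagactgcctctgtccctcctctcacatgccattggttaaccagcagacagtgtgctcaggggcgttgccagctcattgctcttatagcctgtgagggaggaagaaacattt
AKR1C3: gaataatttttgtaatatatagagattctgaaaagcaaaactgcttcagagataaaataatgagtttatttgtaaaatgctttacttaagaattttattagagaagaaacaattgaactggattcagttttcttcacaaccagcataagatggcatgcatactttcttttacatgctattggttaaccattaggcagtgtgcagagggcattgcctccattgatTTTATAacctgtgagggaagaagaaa

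The AKR1C1 and AKR1C2 windows matched at 245 of 246 aligned bases (99.6%). AKR1C1 matched the AKR1C3 window shown at 79.1% and the one not shown at 80.6%. The UGT2B genes lie on chromosome 4, and the windows of UGT2B15 (chr4:68670653-68670902) and UGT2B11 (chr4:69214749-69214998), both on the minus strand, matched at 80.5% of 231 aligned bases. They are shown because both genes are read only through shared probe sets.
UGT2B15: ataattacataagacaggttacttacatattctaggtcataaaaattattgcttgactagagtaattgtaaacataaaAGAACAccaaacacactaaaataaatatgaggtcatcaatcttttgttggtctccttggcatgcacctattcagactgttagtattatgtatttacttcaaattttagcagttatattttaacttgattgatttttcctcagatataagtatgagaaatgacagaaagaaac
UGT2B11: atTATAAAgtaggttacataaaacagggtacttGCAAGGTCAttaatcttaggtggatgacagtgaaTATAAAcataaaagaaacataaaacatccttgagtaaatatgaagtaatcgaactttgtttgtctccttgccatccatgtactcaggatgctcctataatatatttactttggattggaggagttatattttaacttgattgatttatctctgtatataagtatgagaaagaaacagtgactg

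In the UGT2B15 window the capitals mark an AGAACA match, the letters of an androgen receptor element's 6-base unit. In the UGT2B11 window they mark 2 TATAAA matches and, on the opposite strand, 1 match of TGACNNNGC, the antioxidant response element read by NRF2. On both strands, AGAACA was found in 12.4%, TATAAA in 10.7% and TGACNNNGC in 10.9% of 35116 RefSeq promoter windows of the same length. The HNF1 site, a liver factor's palindrome, was found in 0.0057%. The AKR1C1 and AKR1C2 windows held none of these 4. These matches overlap none of each other and describe letters in a window only.

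Among the members, the UGT2B transcripts differed most between the lines, with LNCaP higher. The probe set shared by UGT2B15 and UGT2B17 averaged 12.62 ± 0.11 log2 units in LNCaP and 3.46 ± 0.13 in DU145 (SD, n = 4 arrays each). The fitted difference was 9.16 (SE 0.0681, limma adjusted p = 6.86e-12). The probe set naming UGT2B11, UGT2B17, UGT2B15, UGT2B10 and UGT2B7 (5 symbols) differed by 8.21 (SE 0.218, limma adjusted p = 4.27e-09). The probe set naming UGT2B28, UGT2B11, UGT2B17 and 4 others (7 symbols) differed by 8.41 (SE 0.0948, limma adjusted p = 4.14e-11). At least 6 log2 units higher in LNCaP were 23 of 10607 tested probe sets (0.217%), these 3 among them. All 3 reached the mean level required for the test only through LNCaP, so that share is a description and no support.

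The probe sets of UGT2B17 and UGT2B28 alone fell under the mean level required for the test because DU145 was so low, and were fitted without that floor. UGT2B17 averaged 8.81 ± 0.58 in LNCaP and 2.75 ± 0.11 in DU145 (SD, n = 4 arrays each), a difference of 6.06 (SE 0.174, limma adjusted p = 1.82e-08). UGT2B28 averaged 9.28 ± 0.35 in LNCaP and 2.78 ± 0.22 in DU145 (SD, n = 4 arrays each), a difference of 6.51 (SE 0.0962, limma adjusted p = 7.66e-10). In DU145 each UGT2B value lay below the median of its array, and all but those of the 5-symbol probe set were 2.57 to 3.71, near the lowest values of these arrays (2.03 to 2.12). They are not shown to be above background, so the sizes of the differences, and their SE, hold only for the values as deposited. In these bulk samples, fewer expressing cells and less RNA per cell cannot be told apart.

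The AKR1C genes differed less between the lines. Without the floor, AKR1C2 was higher in LNCaP by 2.37 (SE 0.199, limma adjusted p = 8.44e-06) and the AKR1C1 probe set annotated to its mRNA by 1.71 (SE 0.277, limma adjusted p = 0.000433). The other AKR1C1 probe set, annotated to a cDNA record, differed by 0.30 (limma adjusted p = 0.0201). AKR1C3 differed by -0.24 (SE 0.223, limma adjusted p = 0.327). With the shift of 0.51 between the array medians taken off, AKR1C2 was 1.86 and AKR1C1 (mRNA) 1.198. The AKR1C1 cDNA probe set was then -0.21 and AKR1C3 -0.75. That shift is over all probe sets. Over those with a symbol the medians lay closer (7.64 to 7.71 against 7.34 to 7.39), and that smaller shift was not taken off. The sign for the AKR1C1 cDNA probe set thus depends on the scaling. The 2 AKR1C1 probe sets therefore gave different sizes.

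HSD17B4 and SRD5A1 were well above the array median in both lines. HSD17B4 averaged 11.04 ± 0.18 in LNCaP and 10.08 ± 0.05 in DU145 (SD, n = 4 arrays each), a difference of 0.96 (SE 0.0706, limma adjusted p = 2.44e-06). That difference was 0.45 after median-centring and 0.82 with all arrays quantile normalized. SRD5A1 averaged 9.65 ± 0.09 in LNCaP and 9.82 ± 0.08 in DU145 (SD, n = 4 arrays each), a difference of -0.17 (SE 0.0756, limma adjusted p = 0.0619). With median-centred arrays that difference was -0.68 (limma adjusted p = 3.7e-06), and with all arrays quantile normalized -0.35 (limma adjusted p = 0.00494). Its call and size thus depend on the scaling. In the test with the floor, 4 of 5 members were higher in LNCaP, against 54.7% of all probe sets higher and 26.6% lower. Without it, 9 of 11 were, against 66.7% higher and 18.5% lower (0.198% were at least 6 log2 units higher, among them the 5 UGT2B probe sets). These counts are not read as a result about the members.

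**Figure D1:**
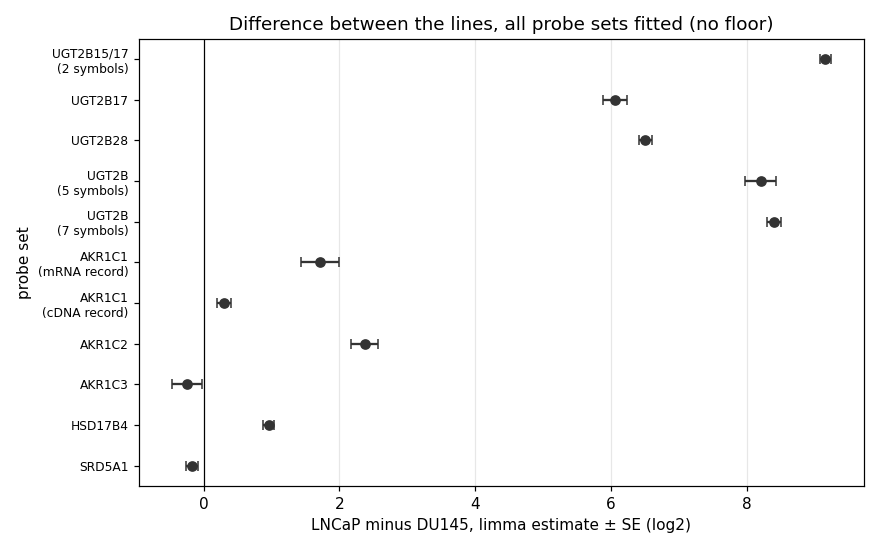
Difference between the cell lines for the 11 distinct probe sets, LNCaP minus DU145 in log2 units on the x axis, fitted by limma without a level floor; points are estimates and bars their SE over 8 arrays. The 5 UGT2B probe sets lie between 6.06 and 9.16, and AKR1C3 and SRD5A1 lie just below 0.

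**Figure D2:**
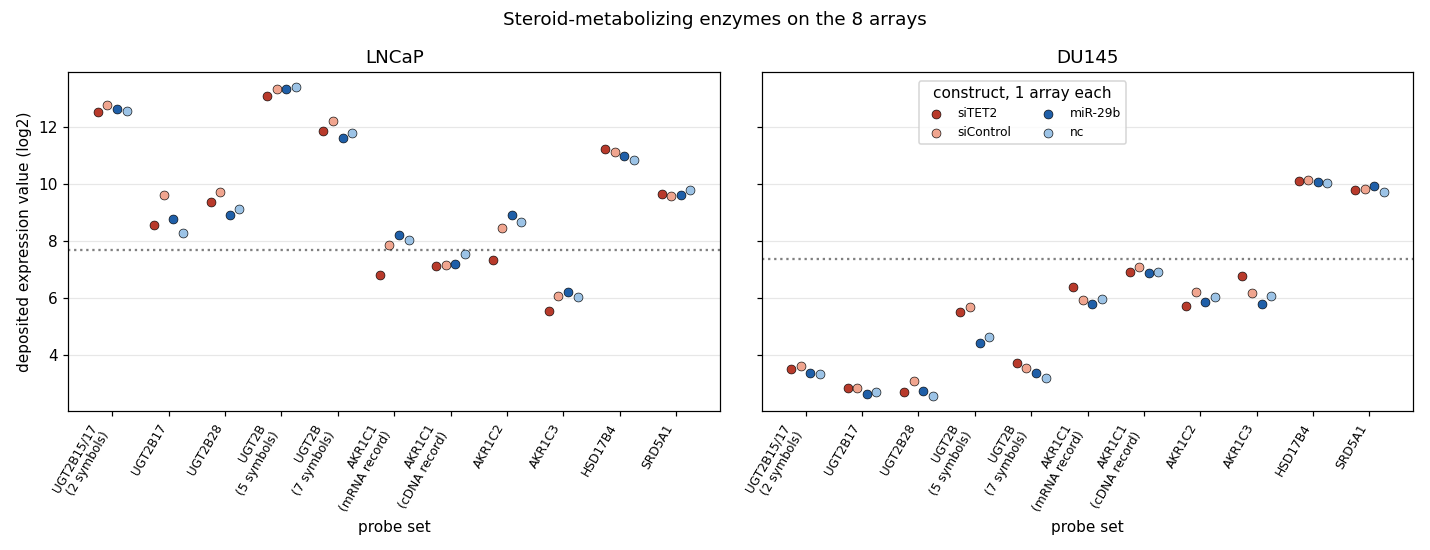
Deposited log2 expression values (y axis) of the 11 distinct probe sets in LNCaP (left) and DU145 (right), 1 point per array and construct. The dotted line is the middle of the 4 arrays' medians over probe sets with a symbol; in DU145 only HSD17B4 and SRD5A1 lie above it.

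With siTET2, the reductases AKR1C2 and AKR1C1 stood out in LNCaP. AKR1C2 was 7.34 with siTET2, against 8.44 with siControl, 8.91 with miR-29b and 8.66 with nc. The siTET2 array was the lowest of the 4, by 1.10 log2 units from the next. AKR1C1 (mRNA probe set) was 6.80 with siTET2, against 7.86 with siControl, 8.19 with miR-29b and 8.02 with nc, so its siTET2 array was also lowest, by 1.06. Relative to siControl these are 2.15-fold and 2.09-fold lower, and relative to nc the differences were -1.32 and -1.22.

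AKR1C3 in LNCaP was 5.54 with siTET2, against 6.08 with siControl, 6.20 with miR-29b and 6.02 with nc, all below the array median. The AKR1C1 cDNA probe set was 7.13 with siTET2, 7.16 with siControl, 7.17 with miR-29b and 7.53 with nc, which differ from siControl by only -0.03. All 4 AKR1C probe sets were thus lowest in the siTET2 array of LNCaP, the cDNA one by little, against 22.0% of 21214 probe sets. By a rule chosen after these values were seen, which restates them and is no support, siTET2 lay at least 1 log2 unit below all 3 other LNCaP arrays in 2 of 11165 probe sets (0.0179%), and these are AKR1C2 and AKR1C1. With no floor these were 2 of 3 such probe sets, and with a floor at the 75th percentile, which AKR1C2 and AKR1C1 do not reach, there were 0. The siTET2 values of both genes (7.34 and 6.80) lay below that array's median of 7.69, so they passed the floor through the other arrays. The same rule in DU145 gave 13 of 11061 probe sets (0.118%) and 0 members, of which 2 were above the floor. The letters of the probes were not used here, so how far the probe sets of these near-identical genes read each other's transcripts was not tested.

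In DU145 the AKR1C genes lay below the array median, and their siTET2 differences had both signs. AKR1C2 was 5.73 with siTET2, 6.22 with siControl, 5.86 with miR-29b and 6.03 with nc, a difference of -0.49 for siTET2. AKR1C1 (mRNA) was 6.37 with siTET2, 5.93 with siControl, 5.77 with miR-29b and 5.95 with nc, a difference of 0.44. AKR1C3 was 6.77 with siTET2, 6.16 with siControl, 5.79 with miR-29b and 6.08 with nc, a difference of 0.61. So siTET2 was the lowest array for AKR1C2 and the highest for AKR1C1 (mRNA) and AKR1C3, and the difference between lines was not tested. The AKR1C1 cDNA probe set was 6.92 with siTET2, 7.09 with siControl, 6.88 with miR-29b and 6.91 with nc, a difference of -0.18. Over all members the signs were opposite in the lines for 5 of 11 distinct probe sets with siTET2, against 41.9% of 21214, and for 7 of 11 with miR-29b, against 53.8%. With both differences also larger than that of the control arrays, it was 2 of 11 for siTET2 (6.92% of all) and 2 of 11 for miR-29b (8.37%).

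**Figure D3:**
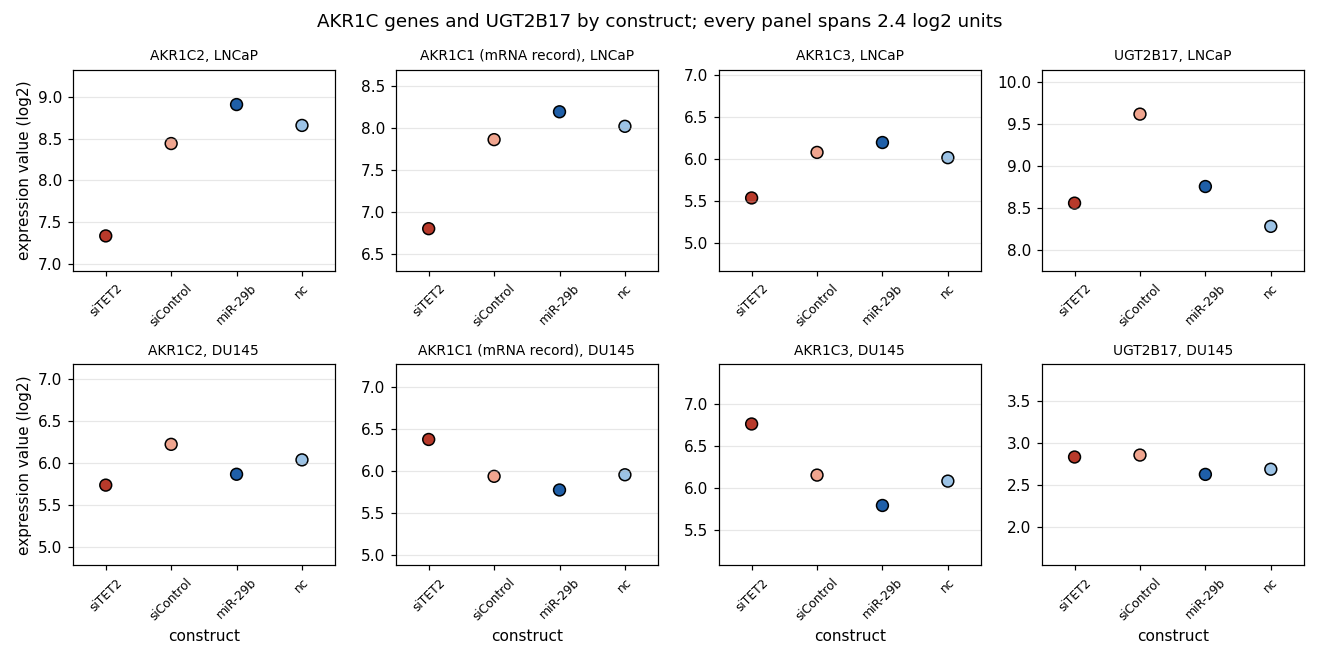
Log2 expression values (y axis) of AKR1C2, AKR1C1 (mRNA record), AKR1C3 and UGT2B17 by construct (x axis) in LNCaP (top) and DU145 (bottom), 1 array per point, every panel spanning the same range. In LNCaP the siTET2 point is lowest for the 3 AKR1C genes, while for UGT2B17 it lies below siControl (9.62) and above nc (8.28).

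All 5 UGT2B probe sets were lower with siTET2 than with siControl in LNCaP, and 3 of them (UGT2B17, UGT2B28 and the 7-symbol probe set) were higher with siTET2 than with nc. UGT2B17 was 8.56 with siTET2, 9.62 with siControl, 8.76 with miR-29b and 8.28 with nc. Its difference was -1.06 (2.09-fold lower) from siControl and 0.28 from nc, and the control arrays themselves differed by 1.34 (2.53-fold, siControl minus nc). The direction therefore turns with the control array, and siControl is the array that stands high.

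UGT2B28 had the same signs at smaller size, with 9.37 with siTET2, 9.72 with siControl, 8.90 with miR-29b and 9.13 with nc. The shared UGT2B15 and UGT2B17 probe set was 12.51 with siTET2, 12.77 with siControl, 12.63 with miR-29b and 12.56 with nc. The siTET2 differences from siControl were -0.35, and -0.26 for the shared probe set, and from nc they were 0.24 and -0.05. The siControl array was the highest of 4 for 4 of 5 UGT2B probe sets in LNCaP, against 20.3% of all 21214, and for 4 of 5 in DU145, against 19.8%. These probe sets share genes, and in DU145 all lay below the array median.

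The 5-symbol probe set was 13.09 with siTET2, 13.32 with siControl, 13.31 with miR-29b and 13.39 with nc in LNCaP, so it lay near the array maxima of 14.36 to 14.48. In DU145 it was 5.52 with siTET2, 5.70 with siControl, 4.44 with miR-29b and 4.64 with nc. In DU145, UGT2B17 was 2.83, 2.86, 2.62 and 2.69 with siTET2, siControl, miR-29b and nc, with siTET2 minus siControl at -0.02. For the 5-symbol probe set both siRNA arrays were thus higher than both miRNA arrays there, and siControl minus nc was 1.06. The 7-symbol probe set was 11.87, 12.22, 11.60 and 11.77 with siTET2, siControl, miR-29b and nc in LNCaP, a siTET2 difference of -0.35 from siControl and 0.10 from nc. For the 5-symbol probe set the difference from nc was -0.29.

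HSD17B4 and SRD5A1 differed little. HSD17B4 was 11.24 with siTET2, 11.13 with siControl, 10.98 with miR-29b and 10.83 with nc in LNCaP, and 10.11, 10.13, 10.06 and 10.03 in DU145. SRD5A1 was 9.64 with siTET2, 9.57 with siControl, 9.60 with miR-29b and 9.77 with nc in LNCaP, and 9.79, 9.84, 9.92 and 9.72 in DU145. No siTET2 difference from siControl exceeded 0.11 for either gene, while HSD17B4 in LNCaP differed from nc by 0.41.

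Counted at 2-fold among probe sets above the level floor, siTET2 was lower than siControl in LNCaP for 3 of 9 member probe sets. These were AKR1C2, the mRNA probe set of AKR1C1 and the probe set of UGT2B17 alone. Of all 10857 probe sets, 0.0921% were lower, 0.0461% higher and 0.138% apart in either direction. AKR1C3 and the cDNA probe set of AKR1C1 lay below the floor and are not among the 9. AKR1C2 and AKR1C1 passed the floor through siControl only, so the count is a description. The members' median difference was -0.35, against 0.01 for all, and 7 of 9 were below 0, against 47.1% of all. Both values are against siControl. Against nc, AKR1C2 (-1.32), AKR1C1 (-1.22), the 5-symbol probe set (-0.29), SRD5A1 (-0.13) and the shared UGT2B15 and UGT2B17 probe set (-0.05) were below 0. UGT2B17 (0.28), UGT2B28 (0.24), the 7-symbol probe set (0.10) and HSD17B4 (0.41) were above 0 against nc. In DU145 the floor left HSD17B4 and SRD5A1, and 0 of 2 reached 2-fold, against 0.313% of 10855 probe sets (0.193% lower and 0.12% higher). A probe set was above the floor where at least 1 of both arrays, the higher, was at or over its array's median for probe sets with a symbol.

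With miR-29b no member reached a 2-fold difference from nc in either line. In LNCaP the differences from nc were 0.25 for AKR1C2, 0.17 for AKR1C1 (mRNA), 0.18 for AKR1C3, 0.48 for UGT2B17 and -0.23 for UGT2B28. Against siControl, UGT2B17 with miR-29b was -0.86 and UGT2B28 -0.82, so the sign for UGT2B17 turns with the control. Counted at 2-fold, 0 of 9 members were apart in LNCaP, against 0.0827% of 10888 probe sets, and 0 of 2 in DU145, against 0.0% of 10832. The median difference of members in LNCaP was 0.07, against 0.02 for all. In DU145, HSD17B4 differed by 0.03, SRD5A1 by 0.20, AKR1C2 by -0.17, AKR1C1 (mRNA) by -0.18 and AKR1C3 by -0.29, the AKR1C genes below the floor.

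The difference between the control arrays was the largest for UGT2B17 among members in LNCaP. Counted at 2-fold, 1 of 9 member probe sets was higher with siControl than with nc there, against 0.155% of 10995 probe sets, and 0 of 2 in DU145, against 0.0371% of 10796. The siTET2 and control differences share the siControl array.

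**Figure D4:**
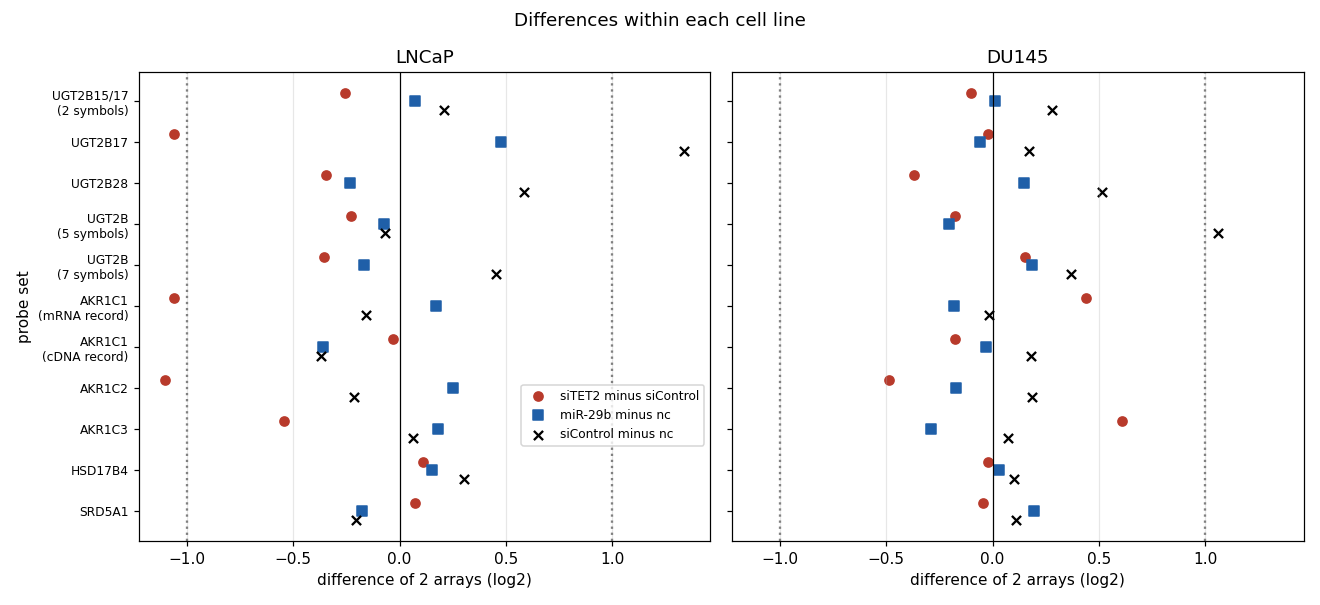
Differences of 2 arrays within LNCaP (left) and DU145 (right) in log2 units for the 11 distinct probe sets, with siTET2 minus siControl as circles, miR-29b minus nc as squares and siControl minus nc as crosses; dotted lines mark 1 log2 unit. In LNCaP the siTET2 circles of AKR1C2, AKR1C1 (mRNA) and UGT2B17 lie beyond -1, and only for UGT2B17 does the control cross lie beyond 1.

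Across both lines, limma tested 5 member probe sets for each construct, and 0 passed in any of the 3 contrasts. The UGT2B probe sets among them reached the mean level only through LNCaP and lay below the array median in DU145. Their common estimates thus average in DU145 values not shown to be above background, so the 0 calls do not show that nothing changed. For siTET2 minus siControl the background was 0.292% lower and 0.0283% higher of 10607 probe sets, and 0 of the 5 members had an unadjusted p below 0.05, against 1428 of all. The shared UGT2B15 and UGT2B17 probe set was -0.18 (SE 0.0963, limma adjusted p = 0.470). For miR-29b minus nc, 0.0% of all passed, with 392 at an unadjusted p below 0.05. For siControl minus nc 0.0% passed, with 1416 at an unadjusted p below 0.05, 2 of them members. These were the shared probe set (0.24, SE 0.0963, limma adjusted p = 0.363) and the 7-symbol one (0.41, SE 0.134, limma adjusted p = 0.355).

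Fitted without the floor, AKR1C2 was -0.79 with siTET2 (SE 0.281, limma adjusted p = 0.562), UGT2B17 -0.54 (SE 0.246, limma adjusted p = 0.667) and UGT2B28 -0.36 (SE 0.136, limma adjusted p = 0.593). These average LNCaP and DU145, which were -1.10 and -0.49 for AKR1C2, -1.06 and -0.02 for UGT2B17 and -0.35 and -0.37 for UGT2B28. In DU145 all their values lay below the array median. Against nc in LNCaP, UGT2B17 turned to 0.28 and UGT2B28 to 0.24, while AKR1C2 was -1.32. AKR1C1 (mRNA) was -0.31 (SE 0.392, limma adjusted p = 0.873), its lines having opposite signs. In that fit 0 of 11 members passed, against 0.00471% of 21214 probe sets lower.

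Other genes of steroid metabolism did not reach 2-fold with siTET2. Listed genes and markers count as measured only where a probe set names them alone, unlike the members, which are also read through shared probe sets. Of 49 listed steroid enzymes, 41 were measured and 17 lay above the floor in LNCaP, with a median difference of 0.03 against 0.01 for all, and 0 reached 2-fold. Of 25 glucuronidation genes, 16 were measured and 7 lay above the floor, of which 6 were below 0 in LNCaP, against 47.1% of all, with a median of -0.02 (0.02 against nc). In DU145 5 of 9 were below 0, against 52.8% of all, with a median of -0.12. UGDH, which makes UDP-glucuronic acid, was 11.31 with siTET2 and 11.69 with siControl in LNCaP (-0.39), and 12.05 with siTET2 and 12.33 with siControl in DU145 (-0.27). UGT2B10, a relative of the members, was 9.07 with siTET2, 9.58 with siControl, 8.73 with miR-29b and 8.66 with nc in LNCaP, so siControl was highest and nc lowest, as for UGT2B17. Of 10 other aldo-keto reductases, 6 were measured and 2 lay above the floor in each line, with 0 at 2-fold. limma called 0 members of any of these lists.

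NRF2 is the transcription factor known to induce AKR1C genes, and other genes of its pathway were listed without the members. Beside targets the list names NFE2L2 (the gene of NRF2), KEAP1, BACH1 and MAFG, so its counts are not of targets alone. Of 25, 23 were measured and 22 lay above the floor in each line. In LNCaP 16 of 22 were below 0 with siTET2 (median -0.12), and in DU145 17 of 22 were above 0 (median 0.11). Over all probe sets the medians were 0.01 in LNCaP and -0.01 in DU145, where 47.1% and 52.8% were below 0. Against nc the list's medians with siTET2 were -0.09 in LNCaP and 0.09 in DU145. Between the controls (siControl minus nc), 15 of 22 were above 0 in LNCaP, with a median of 0.10. In DU145, 16 of 22 were below 0, with a median of -0.10. These differences share the siControl array with those of siTET2, and the opposite signs were not tested. HMOX1, which breaks down haem, was 10.02 with siTET2 and 8.59 with siControl in DU145 (1.43) and 7.78 with siTET2 and 7.67 with siControl in LNCaP (0.11, but -0.51 against nc). SLC7A11, the cystine transporter, was 10.11 with siTET2 and 11.09 with siControl in LNCaP (-0.98, or -0.39 against nc). NQO1, a quinone reductase, was 11.46 with siTET2 and 11.84 with siControl in LNCaP (-0.38). limma called 0 of the list.

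Other genes were ranked by likeness to UGT2B17 and AKR1C2. The measure was the root mean square distance of log2 values over the 8 arrays, after centring each line. The 9727 candidates were probe sets naming 1 gene, members left out, that reached the mean level required for limma. UGT2B17 and AKR1C2 did not reach it themselves. Nearest to UGT2B17 (own distance from its line means 0.36) were HSP90AA6P (0.13), MTBP (0.14), DCUN1D1 (0.15), SFR1 (0.17) and ESF1 (0.17). Nearest to AKR1C2 (own 0.44) were ADD3 (0.17), FOXM1 (0.22), ESPL1 (0.24), CBFB (0.24) and LHFPL2 (0.24). ADD3 in LNCaP was 7.86 with siTET2, against 9.01 with siControl. AKR1C1 (mRNA) lay 0.25 from AKR1C2. With Pearson's correlation in place of the distance, other genes came nearest to both.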

How the data were processed

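Expression was measured on 8 arrays, 1 per cell line and construct. Per the submitters' processing notes, the authors deposited values made with Affymetrix Expression Console and RMA, for 33297 probe sets. The deposited values were read as log2 from their range, and neither the log base nor whether both lines were normalized together is stated in the sources used here. Build and versions were not given there. Gene names came from the platform annotation, checked against RefSeq (GRCh38.p14), which changed 0 symbols: 19460 probe sets had 1 symbol, 1754 several and 12083 none. Members, lists and tests were chosen with earlier results of these data known.

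Within a line, differences of 2 arrays were counted at 2-fold above a floor at the array's 50th percentile. limma 3.58.1 (R 4.3.3, lmFit and eBayes) was fitted to all 8 arrays with terms for line and construct (3 residual degrees of freedom), on 10607 probe sets with a mean of at least 7.52, adjusted by Benjamini-Hochberg at 0.05. The labels name no separate cultures, so the spread behind a p-value is that of 8 arrays and may be technical, and the number of arrays limits the precision. The fit was tested on simulated data. All 9 chosen enzymes, TET2, from each list at most 4 genes of largest difference and the 5 genes most like UGT2B17 and AKR1C2 are named. Alternatives were other controls, floors, scalings, probe set choices and leaving out each array.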

Additional observations from a re-analysis of the deposited data

Results flagged for a closer look

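For AKR1C3 and for 1 of 2 AKR1C1 probe sets the lines had opposite signs with both treatments, each by more than the difference between the control arrays of the line. In DU145 all these values lay below the array's median over probe sets with a symbol (7.34 to 7.39). In LNCaP (medians 7.64 to 7.71) all AKR1C3 values (5.54 to 6.20) and the AKR1C1 mRNA value with siTET2 (6.80) also lay below it. AKR1C3 differed by -0.54 in LNCaP and 0.61 in DU145 with siTET2, and by 0.18 in LNCaP and -0.29 in DU145 with miR-29b. AKR1C1 (mRNA probe set) differed by -1.06 in LNCaP and 0.44 in DU145 with siTET2, and by 0.17 in LNCaP and -0.18 in DU145 with miR-29b. The AKR1C1 cDNA probe set had the same sign in both lines, with -0.03 in LNCaP and -0.18 in DU145 for siTET2 and -0.36 in LNCaP and -0.03 in DU145 for miR-29b. The differences between the lines were not tested, because each rests on 1 array per line and construct. Of the 11 distinct probe sets, 5 had opposite signs in the lines with siTET2, against 41.9% of all probe sets, and 7 with miR-29b, against 53.8%. With both differences also larger than that of the control arrays, it was 2 with siTET2 (6.92% of all) and 2 with miR-29b (8.37%).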

How the results depend on the processing

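With a stricter floor (the 75th percentile), 1 member in place of 3 was 2-fold lower with siTET2 in LNCaP, and against nc or the mean of both controls there were 2. UGT2B17 with siTET2 in LNCaP was 0.28 against nc, opposite to its -1.06 against siControl, with the controls 1.34 apart. Without a floor, 9 member probe sets differed between the lines in place of 4, since 11 rather than 5 were tested. Leaving out each array in turn gave 4 to 5 such members, SRD5A1 being added without LNCaP nc or DU145 nc (-0.25, limma adjusted p = 0.0156). The common contrasts kept 0 member calls in each such fit. Of the other values under alternatives, 558 moved within their limits, 100 moved further and 6, all of SRD5A1 between the lines, passed the threshold newly. These counts are no support, because many were fixed in advance. For a within-line difference the limit was the difference between the control arrays of the line. Another floor left such a value as it was, and the mean of both controls always kept it within the limit. The other control always moved it by the whole limit. A fitted value stayed within where its sign and call were kept. The common fit already compares constructs within lines, with cell line as a term. Without that term the line difference enters the spread. For the shared UGT2B15 and UGT2B17 probe set the SE was then 5.51 in place of 0.0963. That fit gave 0 member calls for the constructs, which is no support, because it could hardly call these probe sets. The lack of replicates and, in DU145, values below the array median limit all within-line results.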

Other observations

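Known androgen-responsive genes were listed beside the enzymes. Of 29 listed symbols of androgen-induced genes, which include older and newer names of the same gene, 21 were measured. Of these, 19 lay above the floor in LNCaP. With siTET2 their median was 0.13, with 16 of 19 above 0, and with miR-29b it was -0.25, with 16 of 19 below 0. Over all probe sets in LNCaP the medians were 0.01 with siTET2, where 47.1% were below 0, and 0.02 with miR-29b, where 44.4% were. In DU145 the signs were the same. With siTET2, 6 of 10 genes above the floor were above 0 (median 0.11, but -0.004 against nc), and 52.8% of all probe sets were below 0. With miR-29b, 7 of 9 were below 0 (median -0.19, or -0.07 against siControl), against 63.7% of all. HOMER2, a scaffold protein, was 9.92 with miR-29b and 10.71 with nc in LNCaP, and HPGD, which inactivates prostaglandins, was 8.71 with miR-29b and 9.38 with nc. Of 25 symbols of androgen-repressed genes, listed likewise, 20 were measured and 11 lay above the floor with siTET2 in LNCaP. Their median was 0.28 against siControl, 0.03 against nc and 0.15 against the mean of both. With the stricter floor the median was 0.06. GRIN3A, a glutamate receptor subunit, was 8.27 with siTET2 and 6.96 with siControl there. limma called 0 genes of either list in a common contrast.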
